A study of Medicago sativa with 9 samples.

Results

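Heat stress transcription factors were examined in leaves of alfalfa (Medicago sativa), a tetraploid forage legume, exposed for 0, 12 or 48 h to selenite, which is selenium in the Se (IV) state, at a dose of 100 mg per kg. Genes were taken by their description in the deposited table, which had to name a heat stress transcription factor or a heat shock factor. Of 164632 genes in the table, 129 matched. A gene also had to reach 1 FPKM (fragments per kilobase of transcript, scaled to the library total) in at least 3 of the 9 libraries, which 43 of the 129 did. Of these 43 genes, 25 were described as class A, 7 as class B and 2 as class C, 7 were factors with no class written, and 2 were heat shock factor-binding proteins. Each time had 3 libraries of poly(A) RNA, all labelled as treated, with 0 h as the baseline. No untreated libraries of 12 or 48 h were among the samples, so selenite and the time of sampling cannot be told apart. The labels do not name a cultivar or the age of the plants, or tell whether a time was sampled from several plants or from 1, so the p-values cover only the spread among these libraries, which may be technical.

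Heat stress transcription factors are trimeric proteins that bind heat shock elements in promoters and switch on genes of chaperones and other protective proteins. In plants, class A factors carry an activation domain, whereas class B and C factors lack the motif typical of it, and several class B factors act as repressors. In Arabidopsis and tomato, A-1 factors start the heat response, the inducible A-2 prolongs it, A-3 acts downstream of the drought factor DREB2A in Arabidopsis, and the binding protein HSBP interacts with the trimers and dampens them. Members of the family also take part in oxidative and drought stress and in development. A gene is named below by its description, its ID in the table and the chromosome copy on which the table places it, so that chromosome 5.2 is copy 2 of chromosome 5. Copies of a gene on the homologous chromosomes resemble each other and may exchange reads. For this reason counts were also added up over the genes of 1 description on 1 numbered chromosome, which put the 43 genes into 19 groups, called summed copies.

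The libraries held 39936347 to 56137145 counts, and the 43 genes together held 198 to 299 CPM (counts scaled to the library total). The leaf marker RuBisCO small subunit summed to between 58137 and 101118 FPKM in every library, and none of the 43 leghemoglobin genes, which mark nodules, had a count. Some markers changed level with time. Chlorophyll a-b binding proteins summed to 29514 to 53759 FPKM at 0 h, 12599 to 13119 FPKM at 12 h and 62178 to 75190 FPKM at 48 h. Secondary wall cellulose synthases, a xylem marker, summed to 4.90 to 19.8 FPKM at 0 h, 3.33 to 5.31 FPKM at 12 h and 6.71 to 14.9 FPKM at 48 h. Genes described as seed storage proteins, of which 11 of 115 passed the filter, summed to 24.5 to 44.9 FPKM at 0 h, 77.1 to 112.7 FPKM at 12 h and 196 to 274 FPKM at 48 h, with no overlap between times. In bulk leaf RNA, fewer cells of a type and less RNA per cell cannot be told apart. The part of these shifts in the results below was not tested.

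Libraries also differed in how they drew on the chromosome copies of a gene. Over 3482 groups with enough counts, the median share of reads by which a pair of libraries differed in their split over copies was 9.25% to 9.39% among the 3 libraries of 12 h and 10.4% between 48 h replicates 1 and 3. It was 20.8% to 23.9% among the 0 h libraries, and 22.7% and 23.5% for 48 h replicate 2 paired with replicates 3 and 1. Summing libraries of like copy usage left 1 library at 12 h and 2 at 48 h, and with the spread of the single 12 h library assumed to be that of the others, no gene and no summed copies of the family were called in any comparison. Nor was any of all genes or groups called with so few samples, and the log2 changes stayed near those with 9 libraries, as for C-1 with 3.73 at 12 h against 0 h in both fits. FPKM values are relative to library totals, whereas the tested changes use TMM scaling. Without TMM, the median gene would have a log2 change of 0.39 for 12 h over 0 h, -0.14 for 48 h over 0 h and -0.54 for 48 h over 12 h, so a gene can be higher in FPKM at 12 h with a tested change near 0.

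HSF24 had the highest level of the summed copies in all 9 libraries, and it lay above the sum of the class A genes in 6 of them, though in none of 12 h. Summed over the 41 factor genes, the family reached 209, 164 and 143 FPKM at 0 h, 151, 129 and 157 FPKM at 12 h and 180, 234 and 189 FPKM at 48 h. The 48 h libraries all lay above the 12 h libraries, and the 0 h libraries overlapped both. HSF24 held 22.8% to 66.0% of this sum in a library. Class A genes summed to 64.1 ± 20.3 FPKM at 0 h, 76.8 ± 4.10 FPKM at 12 h and 64.2 ± 18.1 FPKM at 48 h (SD, n = 3 each), and these groups overlapped. Class B genes summed to 22.2 ± 2.54 FPKM at 0 h, 15.5 ± 2.5 FPKM at 12 h and 25.4 ± 4.96 FPKM at 48 h, and the 12 h libraries lay below all others. Class C was at 0.241 ± 0.119 FPKM at 0 h, 4.84 ± 1.34 FPKM at 12 h and 0.0871 ± 0.151 FPKM at 48 h. Its genes passed the filter through their 12 h level alone, so the rise of this sum at 12 h is not independent of the filter.

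**Figure D1:**
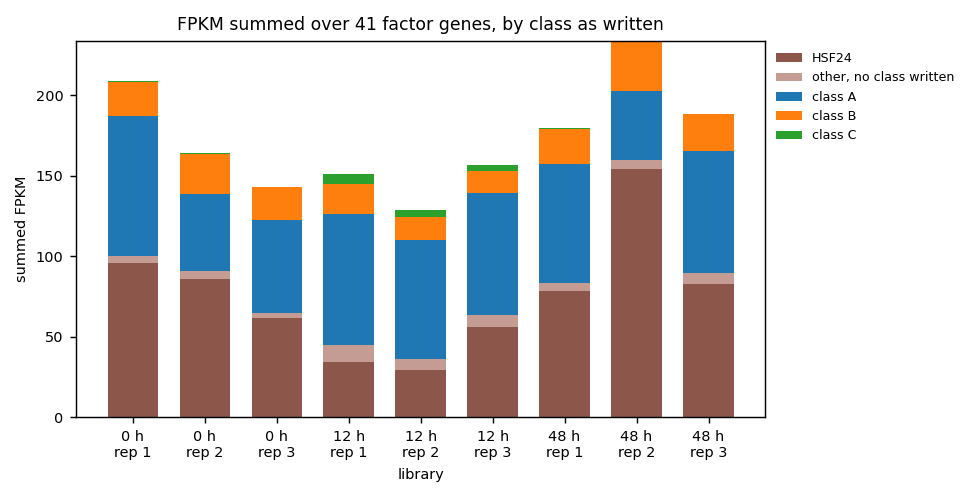
FPKM summed over the 41 factor genes in each of the 9 libraries, stacked by class as written in the descriptions, with HSF24 apart from the other factors with no class written. HSF24 is the largest block at 0 h and 48 h, and class C shows only at 12 h, where it summed to 4.84 ± 1.34 FPKM. The class C genes passed the filter through their 12 h level alone, so this pattern is not independent of it.

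By edgeR's quasi-likelihood test with Benjamini-Hochberg adjustment over all 50878 genes tested, none of the 43 single genes was called at 12 h against 0 h, where 5.88% of all genes were called, 1.58% higher and 4.29% lower. DESeq2 called 11 of them there, against 17.9% of all genes, and 14 had an unadjusted p under 0.05 in edgeR, against 21.7% of all genes. None was called at 48 h against 0 h either, where 1.14% of all genes were called, 0.647% higher and 0.497% lower. DESeq2 called 6 of the 43 there, against 11% of all genes, and 7 had an unadjusted p under 0.05 in edgeR, against 16.4% of all genes. At 48 h against 12 h, 6 of the 43 genes, or 14.0%, were called, against 10.6% of all genes. Of these, 4 were higher and 2 lower at 48 h, against 6.96% and 3.61% of all genes. Both lower ones, a C-1 and an A-8 gene, are among 4 members that reached 1 FPKM only at 12 h and so passed the filter through the time at which they are high. The median log2 change at 12 h against 0 h was -0.14 for the 43 genes and -0.01 for all genes. It was 0.46 and -0.05 for 48 h over 0 h, and 0.62 and -0.05 for 48 h over 12 h. Scaling to library totals instead turned the first median of the 43 genes to 0.27, left the others at 0.38 and 0.14, and called 3 genes higher and 3 lower at 48 h against 12 h, 5 of them among the 6 called with TMM. Over all genes it called 3.22% higher and 3.07% lower at 12 h against 0 h, 0.505% and 0.576% at 48 h against 0 h, and 4.7% and 8.38% at 48 h against 12 h.

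Among the 19 summed copies, the test called 4 at 12 h against 0 h, of which 1 rose and 3 fell, where 13.8% of all 19011 groups were called, 5.12% higher and 8.72% lower. It called 3 at 48 h against 0 h, all lower, against 7.06% of all groups, 3.67% higher and 3.4% lower. Both A-3 isoforms, on copies of chromosome 1, are among these 3. With the isoforms summed to 1 group, the calls there were A-3 and A-2. The test called 5 at 48 h against 12 h, of which 3 were higher and 2 lower, against 22.1% of all groups, 12.6% higher and 9.54% lower. With library totals, 1 of the 19 was called at 12 h against 0 h, which was higher, where 14.9% of all groups were higher and 6.02% lower. At 48 h against 0 h 3 were lower, against 2.84% of all groups higher and 4.58% lower, and at 48 h against 12 h 2 were higher and 6 lower, against 7.93% and 26.1% of all groups. The calls under TMM fell on C-1, HSF24, B-2b, A-2 and A-3, which are described in turn by class. All comparisons share libraries, so their values are given side by side.

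**Figure D2:**
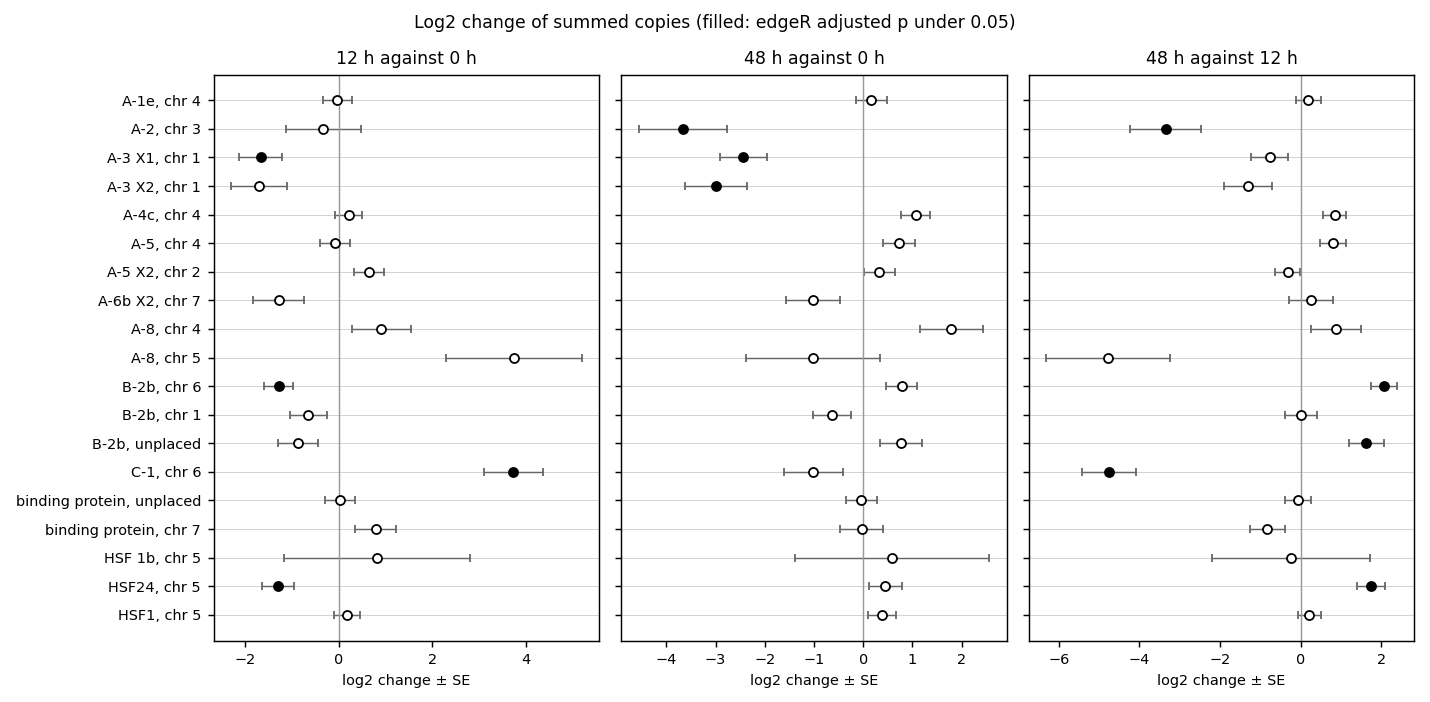
Log2 change ± SE of the 19 summed copies in the 3 comparisons, on an axis of log2 units. Filled points passed an adjusted p of 0.05 in edgeR, as for C-1, which lies at 3.73 at 12 h against 0 h and at -4.74 at 48 h against 12 h. The C-1 genes passed the filter through their 12 h level alone, so these tests are not independent of it.

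A-1e, a member of the group that starts the heat response in Arabidopsis and tomato, differed little between the times. Its summed copies on chromosome 4 were at 5.53, 4.66 and 4.58 FPKM at 0 h, 7.31, 5.5 and 6.94 FPKM at 12 h and 6.68, 3.04 and 6.21 FPKM at 48 h. The groups overlapped, and no comparison passed the test, with log2 changes of -0.03 ± 0.31 (SE) at 12 h against 0 h and 0.16 ± 0.31 at 48 h against 0 h. Its highest copy, MS.gene031737 on chromosome 4.3, held 18.5% to 57.9% of the FPKM of these copies.

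A-2, which in Arabidopsis is strongly induced by heat and by oxidative stress, was lowest at 48 h. Its summed copies on chromosome 3 were at 8.73, 4.07 and 1.92 FPKM at 0 h, at 2.44, 1.75 and 11.1 FPKM at 12 h and at 0.332, 0.504 and 0.172 FPKM at 48 h. All 48 h libraries lay below all others, whereas 12 h replicate 3 stood above its own group and above every 0 h library. The copies fell by 3.67 ± 0.89 on the log2 scale at 48 h against 0 h (edgeR adjusted p = 0.0445) and fell by 3.34 ± 0.88 at 48 h against 12 h (adjusted p = 0.0281). For 12 h over 0 h the log2 change was -0.32 ± 0.79 (adjusted p = 0.836). The call at 48 h against 0 h was lost without any 1 of the 0 h libraries, 12 h replicates 1 or 2, or 48 h replicates 1 or 3, with adjusted p of 0.0569 to 0.158. It was also lost when the 12 h libraries were left out of the fit (adjusted p = 0.0623), with no filter (adjusted p = 0.0595) and with limma on log2(FPKM + 1) (adjusted p = 0.0679). The call against 12 h was lost without 48 h replicates 1 or 3, and without 12 h replicate 3 the log2 change was -2.07 (adjusted p = 0.0832). Only MS.gene37417, on chromosome 3.4 at 91525254 to 91526669, passed the filter among the A-2 copies.

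A-3, in Arabidopsis a target of DREB2A in drought and heat, fell at 48 h against 0 h in both of the isoforms the descriptions give. The descriptions name isoform X1 on chromosomes 1.3 and 1.4, and isoform X2 on chromosome 1.1. Isoform X1 summed to 8.47, 4.88 and 14.7 FPKM at 0 h, 3.52, 3.27 and 5.41 FPKM at 12 h and 1.71, 1.32 and 2.0 FPKM at 48 h. Its 48 h libraries lay below all others, and 1 of the 12 h libraries overlapped 0 h. It fell by 1.67 ± 0.46 on the log2 scale at 12 h against 0 h (edgeR adjusted p = 0.0449) and fell by 2.43 ± 0.47 at 48 h against 0 h (adjusted p = 0.0232). The 12 h call was lost without 0 h replicates 1 or 3, any 12 h library, or 48 h replicates 1 or 3, with adjusted p of 0.0589 to 0.156, and without 0 h replicate 3 the log2 change was -1.06. With library totals the 12 h change was -1.18 and did not pass (adjusted p = 0.0850), and that of 48 h over 12 h was -1.31 and passed (adjusted p = 0.0469). The 48 h call was lost without 48 h replicates 1 or 3, with adjusted p of 0.0925 and 0.0747, and when the 12 h libraries were left out of the fit (adjusted p = 0.0652).

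Isoform X2, the single gene MS.gene47348, was at 8.44, 1.46 and 7.70 FPKM at 0 h, 2.17, 2.02 and 3.18 FPKM at 12 h and 0.773, 0.521 and 0.804 FPKM at 48 h. As summed copies it fell by 2.99 ± 0.63 on the log2 scale at 48 h against 0 h (edgeR adjusted p = 0.0303), and at 12 h the change of -1.69 ± 0.60, of like size to that of isoform X1, did not pass (adjusted p = 0.0997). The 48 h call was lost without 0 h replicates 1 or 3, 12 h replicates 1 or 2, or 48 h replicates 1 or 3, with adjusted p of 0.0565 to 0.108, and when the 12 h libraries were left out of the fit (adjusted p = 0.0851). Without 0 h replicate 2, the low one of its group, the change at 12 h against 0 h was -2.16 (adjusted p = 0.00797). With both isoforms summed, which was added after the data were seen, A-3 fell by 1.68 ± 0.47 at 12 h against 0 h (adjusted p = 0.0475) and fell by 2.64 ± 0.49 at 48 h against 0 h (adjusted p = 0.0190).

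A-4c, a relative of the Arabidopsis A-4a that responds to hydrogen peroxide, did not pass the test. Its copies on chromosome 4 summed to 12.2, 6.03 and 9.94 FPKM at 0 h, 17.1, 12.8 and 14.3 FPKM at 12 h and 18.9, 14.0 and 23.4 FPKM at 48 h. Both later times lay above 0 h in FPKM, with a log2 change of 1.07 ± 0.29 at 48 h against 0 h (edgeR adjusted p = 0.0635) and 0.22 ± 0.29 at 12 h against 0 h. Without 48 h replicate 2 the change over 0 h was 1.21 and passed (adjusted p = 0.0386). MS.gene27848, on chromosome 4.1, had no count in 0 h replicate 2, where MS.gene065968, on chromosome 4.3, held 84.1% of the FPKM. MS.gene023615, on chromosome 4.4, was the highest copy on average.

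A-5, which restrains A-4 factors in Arabidopsis, had copies on chromosomes 4 and 2, and neither set passed the test. On chromosome 4 the summed copies averaged 7.94 ± 0.995 FPKM at 0 h, 10.1 ± 2.71 FPKM at 12 h and 12.5 ± 5.39 FPKM at 48 h, led by MS.gene08977 on chromosome 4.4. Without 48 h replicate 2 the log2 change of 48 h was 0.99 over 0 h (edgeR adjusted p = 0.0473) and 1.06 over 12 h (adjusted p = 0.0237). One further copy there, MS.gene09269, was the gene closest to the filter and had 240, 88 and 0 counts at 12 h and 0, 0 and 341 counts at 48 h, with none at 0 h. On chromosome 2, isoform X2 was at 4.47, 3.18 and 1.77 FPKM at 0 h, 7.75, 8.82 and 6.29 FPKM at 12 h and 3.15, 2.20 and 4.69 FPKM at 48 h. The 12 h libraries lay above all others in FPKM, and the log2 change against 0 h was 0.64 ± 0.32 (edgeR adjusted p = 0.220). MS.gene76552, on chromosome 2.3, was its highest copy.

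A-6b, an abscisic acid-responsive factor in Arabidopsis, had MS.gene020288 on chromosome 7.4 as its highest copy on average. Its share of the A-6b FPKM ranged from 17.6% to 83.6%. In 48 h replicates 1 and 3 it held 25.2% and 17.6%, where MS.gene43382 on chromosome 7.2 held 49.3% and 48.2%. MS.gene020288 was at 23.8, 4.24 and 7.54 FPKM at 0 h, 6.83, 6.18 and 6.84 FPKM at 12 h and 0.947, 7.54 and 0.484 FPKM at 48 h. The high value belongs to 0 h replicate 1 alone, and at 48 h replicates 1 and 3 were low while replicate 2 was not. The summed copies on chromosome 7 had log2 changes of -1.28 ± 0.55 at 12 h against 0 h (edgeR adjusted p = 0.159) and -1.02 ± 0.54 at 48 h against 0 h (adjusted p = 0.299). Without 48 h replicate 2 the change at 48 h was -1.79 (adjusted p = 0.0435).

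A-8, which acts as a redox-sensitive factor in Arabidopsis, had copies on chromosomes 4 and 5 with unlike patterns. On chromosome 4 the 4 copies summed to 5.39, 7.73 and 3.44 FPKM at 0 h, 15.99, 14.6 and 10.9 FPKM at 12 h and 27.3, 3.31 and 23.9 FPKM at 48 h. At 48 h, replicates 1 and 3 held the highest values and replicate 2 the lowest of all 9 libraries. Copies 4.1, 4.2 and 4.3 were at 0.259, 0 and 0.0981 FPKM in that library, against 5.59 to 7.75 FPKM in the other 48 h libraries, and MS.gene058589 on chromosome 4.4 held 89.2% of what remained. With all libraries the log2 change at 48 h against 0 h was 1.79 ± 0.64 and did not pass (edgeR adjusted p = 0.134), and without 48 h replicate 2 it was 2.28 (adjusted p = 0.00574). The same holds at 48 h against 12 h, where the change was 0.88 ± 0.63 with all libraries (adjusted p = 0.357) and 1.37 without that replicate (adjusted p = 0.0197). By limma on log2(FPKM + 1) with all libraries, this last change was -0.02.

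On chromosome 5 both A-8 copies were found almost only at 12 h, the only time at which they reached 1 FPKM, so the filter chose them by their 12 h level and their tests against 12 h are not independent of it. MS.gene063981 on chromosome 5.2 was at 0, 0.0789 and 0 FPKM at 0 h, 3.02, 3.52 and 3.23 FPKM at 12 h and 0.348, 0 and 0.312 FPKM at 48 h. MS.gene054735 on chromosome 5.3, at 33187827 to 33198046, was at 0.418, 0.535 and 0 FPKM at 0 h, 4.80, 3.43 and 2.89 FPKM at 12 h and 0 FPKM in all 48 h libraries. All 12 h libraries lay above all others for both genes. MS.gene054735, with no count at 48 h against 257 to 352 counts at 12 h, was called (edgeR adjusted p = 0.0332) and was at least 59.3-fold lower at 48 h, taking 3 counts per library as the floor. That call was lost without 0 h replicate 1, any 12 h library, or 48 h replicates 1 or 3, with adjusted p of 0.0561 to 0.0934. The summed copies, with changes of 3.75 ± 1.45 at 12 h against 0 h (adjusted p = 0.126) and -4.78 ± 1.53 at 48 h against 12 h (adjusted p = 0.0561), did not pass with all libraries. The second of these changes passed without 0 h replicate 3, at -4.78 (adjusted p = 0.0199), and with library totals, at -5.30 (adjusted p = 0.0303).

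**Figure D3:**
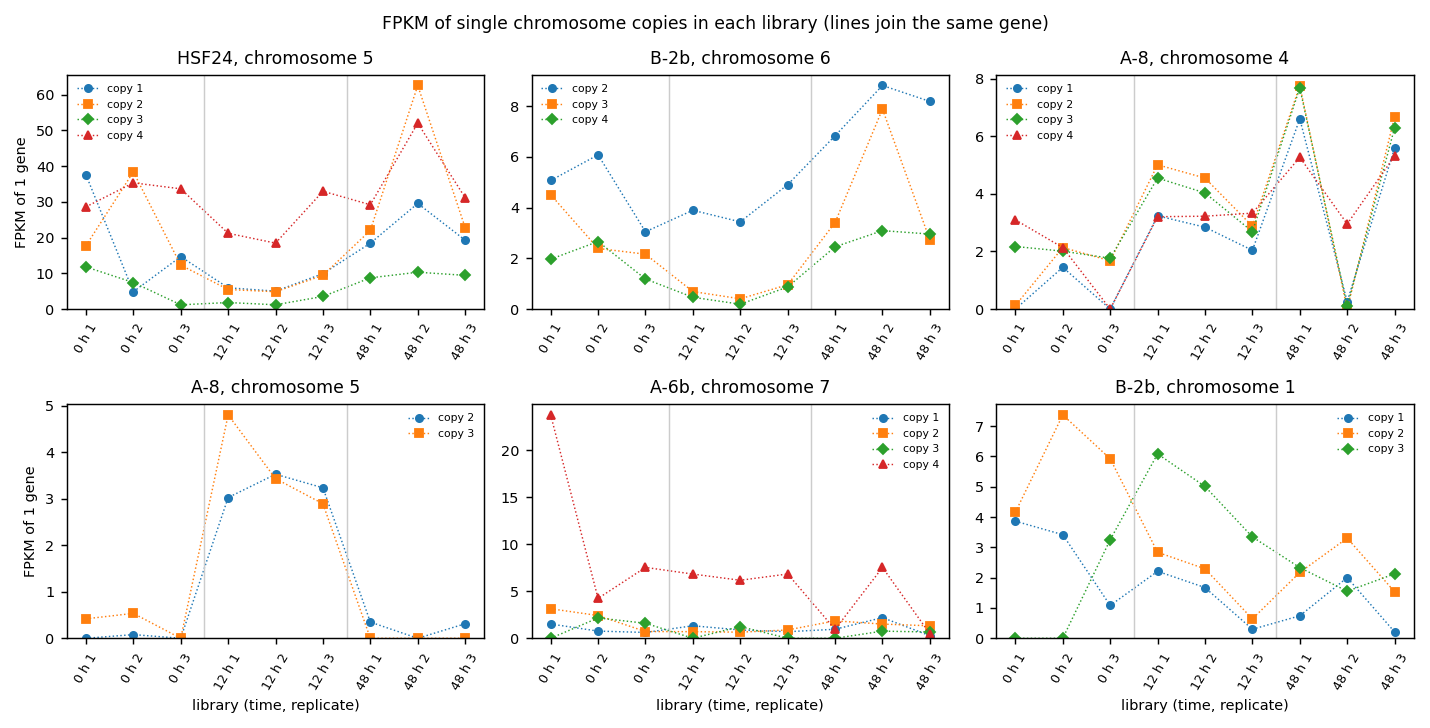
FPKM of single genes in each of the 9 libraries, 1 panel for each of 6 sets of chromosome copies, with dotted lines joining the values of 1 gene. In 48 h replicate 2, 3 of the 4 A-8 copies on chromosome 4 drop to 0.259 FPKM or less, and both A-8 copies on chromosome 5 reach 2.89 FPKM or more only at 12 h.

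Among genes described as class B, only those of B-2b passed the filter, at 2 numbered chromosomes and 1 unplaced sequence. HSF24, given below, has no class written and is not counted here. In Arabidopsis B-2b is a repressor that also lowers transcription of the clock gene PRR7. On chromosome 6 its 3 copies summed to 11.5, 11.1 and 6.40 FPKM at 0 h, 5.06, 4.04 and 6.74 FPKM at 12 h and 12.7, 19.8 and 13.9 FPKM at 48 h. The 48 h libraries lay above all others, and the 12 h libraries overlapped only the lowest 0 h library. The copies fell by 1.28 ± 0.32 on the log2 scale at 12 h against 0 h (edgeR adjusted p = 0.0309) and were higher at 48 h against 12 h by 2.07 ± 0.32 (adjusted p = 0.00356). For 48 h over 0 h the log2 change was 0.79 ± 0.31 (adjusted p = 0.171). The 12 h call was lost without 0 h replicates 1 or 2 or 12 h replicates 1 or 2, with adjusted p of 0.0683 to 0.119, and with library totals, where the change was -0.85 (adjusted p = 0.1004). The call between 48 h and 12 h held without each library.

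The chromosome 6 copies of B-2b were the only set of which every copy was called at 48 h against 12 h. MS.gene84114, on chromosome 6.3 at 52909236 to 52910395, was at 3.41, 7.89 and 2.73 FPKM at 48 h and 0.692, 0.406 and 0.961 FPKM at 12 h, a log2 change of 3.23 ± 0.63 (edgeR adjusted p = 0.0181). MS.gene000756, on chromosome 6.4 at 34113335 to 34114494, was at 2.46, 3.09 and 2.96 FPKM at 48 h and 0.466, 0.192 and 0.874 FPKM at 12 h, a change of 2.90 ± 0.64 (adjusted p = 0.0270). MS.gene98248, on chromosome 6.2 at 55114403 to 55115562, was at 6.84, 8.82 and 8.19 FPKM at 48 h and 3.90, 3.44 and 4.91 FPKM at 12 h, a change of 1.41 ± 0.35 (adjusted p = 0.0396). In all 3 genes the 48 h libraries lay above the 12 h libraries. MS.gene98248 held 72.8% to 85.2% of the FPKM of these copies at 12 h, against 43.9% to 54.6% at 0 h. The calls were lost without 12 h replicates 1 or 2 for all 3 genes, also without 48 h replicates 1 or 3 for MS.gene000756, and without any library other than 0 h replicates 2 and 3 for MS.gene98248, with adjusted p of 0.0514 to 0.140. MS.gene98248 also did not pass with library totals, where its change was 0.92 (adjusted p = 0.131).

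The unplaced B-2b gene, MS.gene90989, showed the same order of times, with 1.80, 3.07 and 3.46 FPKM at 0 h, 2.19, 1.34 and 2.77 FPKM at 12 h and 3.94, 4.38 and 5.41 FPKM at 48 h. In the fit of summed copies, where it stands alone, it was higher at 48 h against 12 h by 1.63 ± 0.43 on the log2 scale (edgeR adjusted p = 0.0287). As a single gene it did not pass (adjusted p = 0.0668). The call as a group was lost without 12 h replicates 1 or 2 or 48 h replicates 1 or 3, with adjusted p of 0.0653 to 0.0990. It was also lost with library totals, where the change was 1.08 (adjusted p = 0.0800). The chromosome 1 copies of B-2b did not follow this pattern. They averaged 10.2 ± 1.62 FPKM at 0 h, 8.85 ± 4.10 FPKM at 12 h and 6.20 ± 1.0 FPKM at 48 h, with a log2 change of 0.01 ± 0.39 at 48 h against 12 h. Among them MS.gene49062, on chromosome 1.3, had no count in 2 libraries of 0 h and led the set at 12 h with 3.35 to 6.08 FPKM, where MS.gene34469 on chromosome 1.2 had 0.640 to 2.84 FPKM.

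C-1, the only class C description, showed the largest change of the summed copies in both comparisons with 12 h for which the test passed. Its copies on chromosome 6 summed to 0.177, 0.221 and 0.378 FPKM at 0 h, 6.79, 4.36 and 4.91 FPKM at 12 h and 0.261, 0.0520 and 0.0869 FPKM at 48 h. The 12 h libraries stood far above all others. Both C-1 genes reached 1 FPKM only in those libraries, so the filter chose them by their 12 h level and the tests that follow are not independent of it. The copies rose by 3.73 ± 0.64 on the log2 scale at 12 h against 0 h (edgeR adjusted p = 0.00740) and fell by 4.74 ± 0.67 at 48 h against 12 h (adjusted p = 0.00233). Both calls held under every other planned setting that gave a value, including without each library, with adjusted p of at most 0.0398 and 0.0137.

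The main C-1 copy was MS.gene05548, on chromosome 6.2 at 85120200 to 85123105, which had 350, 233 and 227 counts at 12 h, against 13, 11 and 24 counts at 0 h and 6, 0 and 0 counts at 48 h. As a single gene it fell by 6.28 ± 1.47 on the log2 scale at 48 h against 12 h (edgeR adjusted p = 0.0337) and did not pass at 12 h against 0 h (adjusted p = 0.165). The 48 h call was lost without any 12 h library or 48 h replicate 3, with adjusted p of 0.0710 to 0.0993. The second copy, MS.gene042968 on chromosome 6.4, had no count at 0 h and 77, 59 and 88 counts at 12 h. It was at least 15.5-fold higher at 12 h with 3 counts per library as the floor, and did not pass the test (adjusted p = 0.0863).

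HSF24, whose name was first given to a tomato factor since placed in class B as B1, was the most abundant member, fell at 12 h and was higher at 48 h than at 12 h. Its 4 copies lie on chromosomes 5.1 to 5.4, the first at 9692198 to 9694414 and the last at 10594467 to 10602650. Together they summed to 95.7, 86.0 and 61.8 FPKM at 0 h, 34.5, 29.5 and 55.9 FPKM at 12 h and 78.4, 154 and 82.7 FPKM at 48 h. All 12 h libraries lay below all others, and 48 h replicate 2 stood far above the other 48 h libraries. The copies fell by 1.30 ± 0.34 on the log2 scale at 12 h against 0 h (edgeR adjusted p = 0.0383) and were higher at 48 h against 12 h by 1.75 ± 0.35 (adjusted p = 0.00925). For 48 h over 0 h the change was 0.45 ± 0.34 (adjusted p = 0.480). The 12 h call was lost without any 0 h library, 12 h replicates 1 or 2, or 48 h replicate 1, with adjusted p of 0.0515 to 0.140, and with library totals, where the change was -0.86 (adjusted p = 0.0968). The call between 48 h and 12 h held under all 19 other planned settings, with a log2 change of 1.33 without 48 h replicate 2 (adjusted p = 0.0110).

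The HSF24 copies moved the same way to unequal extents. MS.gene041094 on chromosome 5.2, at 9587990 to 9590203, was at 22.0, 62.6 and 22.8 FPKM at 48 h, against 5.48, 4.86 and 9.44 FPKM at 12 h. It rose by 2.91 ± 0.63 on the log2 scale (edgeR adjusted p = 0.0257), and the call was lost without any 12 h library, with adjusted p of 0.0546 to 0.102. The other three copies had log2 changes of 1.09 to 2.56 at 48 h against 12 h and did not pass. The smallest change was that of MS.gene010367 on chromosome 5.4, the highest copy on average, which was at 29.2, 52.0 and 31.2 FPKM at 48 h and 21.2, 18.5 and 33.0 FPKM at 12 h. Its share of HSF24 FPKM was 29.9% to 54.4% at 0 h, 59.0% to 62.5% at 12 h and 33.7% to 37.7% at 48 h.

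**Figure D4:**
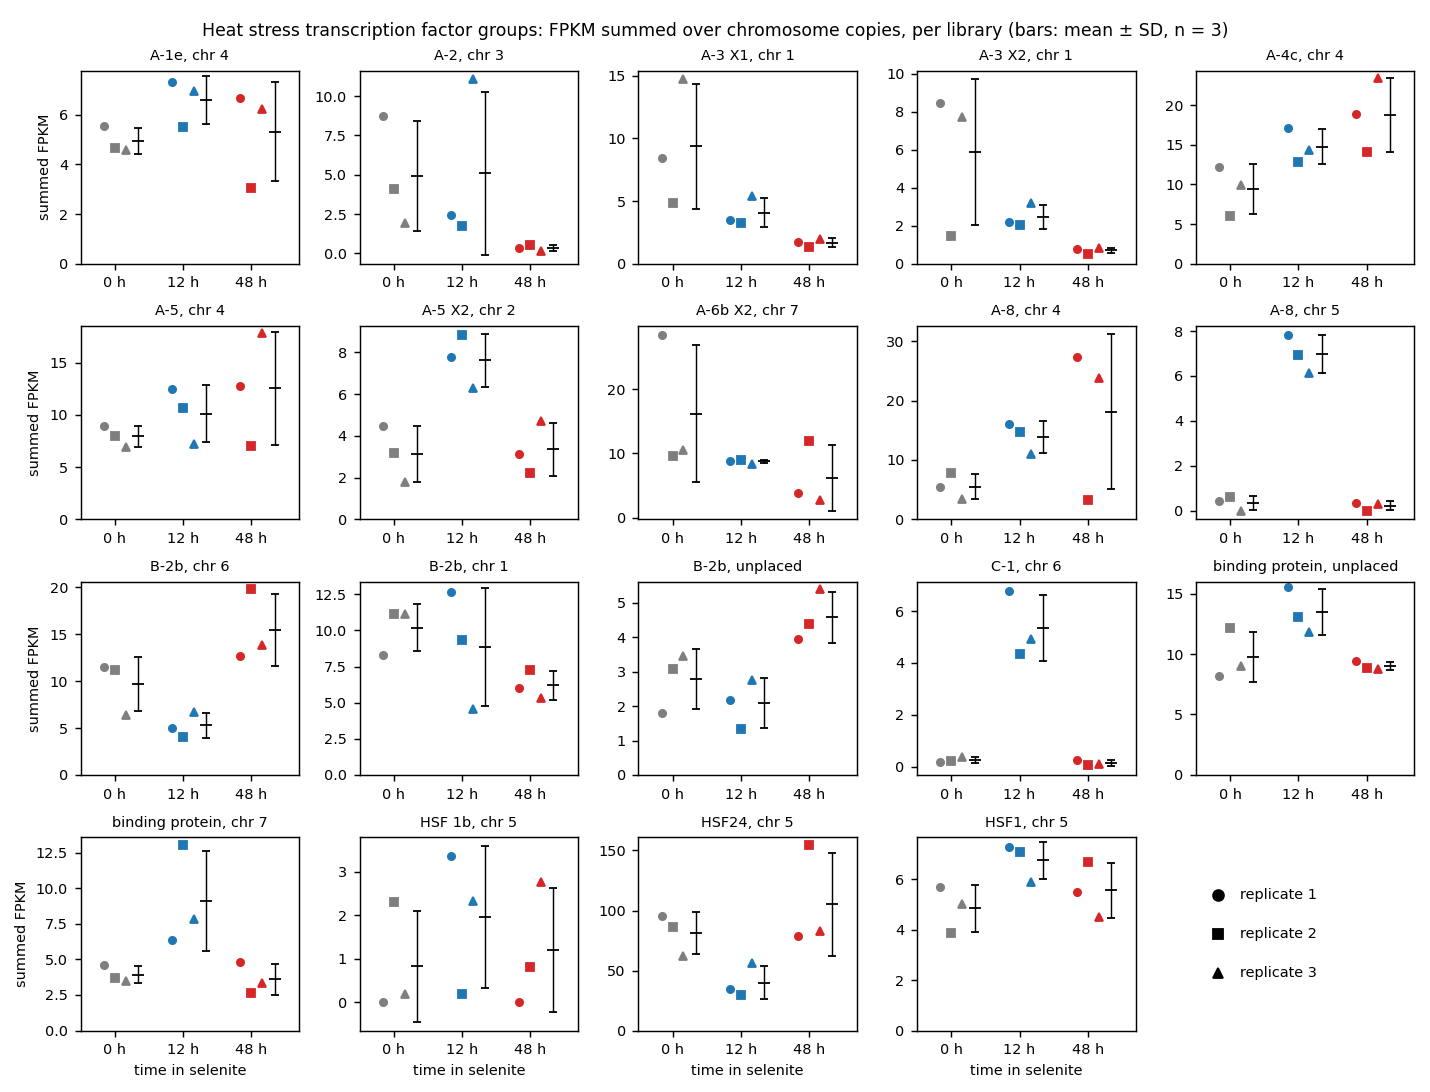
Summed FPKM of the 19 groups of copies, 1 panel for each, with 1 point per library (circle, square and triangle for replicates 1, 2 and 3) and the mean ± SD beside them (n = 3 libraries). Points are grouped by time along the horizontal axis, and each panel has its own FPKM axis. C-1 and A-8 on chromosome 5, whose members passed the filter through their 12 h level alone, stand out at 12 h. HSF24 and B-2b on chromosome 6 are lowest on average at 12 h, and A-2 and A-3 are lowest at 48 h.

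The remaining factors with no class written are the alfalfa genes described as heat shock transcription factor 1 and heat shock factor 1b, on chromosome 5. Heat shock transcription factor 1 summed to 5.68, 3.85 and 5.0 FPKM at 0 h, 7.25, 7.06 and 5.90 FPKM at 12 h and 5.49, 6.69 and 4.51 FPKM at 48 h, with a log2 change of 0.18 ± 0.29 at 12 h against 0 h that did not pass. Its highest copy was MS.gene23901 on chromosome 5.4. Heat shock factor 1b, MS.gene027925 on the same chromosome copy, was at 0, 2.30 and 0.179 FPKM at 0 h, 3.38, 0.176 and 2.33 FPKM at 12 h and 0, 0.812 and 2.78 FPKM at 48 h. It was present in some libraries of each time and nearly missing in others, so the groups overlapped.

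The binding proteins did not pass the test, and their summed FPKM was highest at 12 h. The unplaced MS.gene005615 was at 8.22, 12.1 and 8.98 FPKM at 0 h, 15.6, 13.0 and 11.8 FPKM at 12 h and 9.40, 8.83 and 8.76 FPKM at 48 h, with a log2 change of 0.03 ± 0.32 at 12 h against 0 h in the fit of summed copies. MS.gene22983 on chromosome 7.2 was at 4.64, 3.66 and 3.50 FPKM at 0 h, 6.38, 13.1 and 7.82 FPKM at 12 h and 4.79, 2.67 and 3.37 FPKM at 48 h, with a change of 0.79 ± 0.43 at 12 h against 0 h (edgeR adjusted p = 0.273). Its change of -0.82 ± 0.43 at 48 h against 12 h did not pass (adjusted p = 0.212), and with library totals it was -1.37 and passed (adjusted p = 0.0406). The 12 h libraries lay above 0 h for MS.gene22983, and overlapped 0 h for MS.gene005615.

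Copies of one description moved in the same direction in 8 of 13 groups with more than 1 gene at 12 h against 0 h, in 7 at 48 h against 0 h and in 8 at 48 h against 12 h. The share over all groups of copies was not computed, so these counts have no background. Some of the groups, such as C-1 and A-8 on chromosome 5, hold only 2 genes. The genes of those sets passed the filter through their 12 h level. GO terms in the deposited table gave the 43 genes a nuclear location in every case, DNA-binding transcription factor activity in 26 cases (60.5%, against 4.48% of tested genes) and response to heat in 9 cases (20.9%, against 0.822%). Response to reactive oxygen species was given for 3 (6.98%, against 0.124%), and a nuclear location for 26.6% of tested genes. The genes were chosen by descriptions that name such factors, so these shares are not a separate result.

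Of the 86 matching genes below the filter, 51 had no count in any library and 78 reached 1 FPKM in none. The unread genes included all 23 copies of A-5 on chromosome 6, all 6 genes of A-4a and 6 of 7 genes of A-9-like, whose Arabidopsis relative A-9 works in seed development. All genes of A-7a, B-2a, B-3, B-4 isoform X1 and B-4b lay below the filter, as did 2 HSF24 genes described after chickpea, which had no count. Just inside the filter, the third-highest FPKM of a gene was 1.01 for MS.gene09269 and 1.13 for MS.gene042968, and just outside it was 0.912 for the A-1e gene MS.gene006572 and 0.863 for the B-2b gene MS.gene41406.

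Chaperones, the best known targets of these factors, were described by lists of descriptions. Copies of 1 description on homologous chromosomes count as separate genes in these lists. The counts below stand beside the shares of all genes called higher and lower. These were 1.58% and 4.29% at 12 h against 0 h, 0.647% and 0.497% at 48 h against 0 h, and 6.96% and 3.61% at 48 h against 12 h. With library totals they were 3.22% and 3.07% at 12 h against 0 h, and 4.7% and 8.38% at 48 h against 12 h. Small heat shock proteins, which hold unfolding proteins in solution, summed to 588, 320 and 343 FPKM at 0 h, 147, 133 and 247 FPKM at 12 h and 278, 457 and 310 FPKM at 48 h over 37 tested genes. All 12 h libraries lay below all others, as for HSF24. Of the 37 genes, 6 fell and none rose at 12 h against 0 h, with a median log2 change of -1.16, and 5 were higher and none lower at 48 h against 12 h, with a median of 0.27. Apart from MS.gene053606, an 18.2 kDa class I protein on chromosome 4.3, all of these calls were genes of 1 description. They are described as localized small heat shock protein and lie on chromosomes 3.1 to 3.4, so they may exchange reads. With library totals 1 rose and 5 fell at 12 h against 0 h, with a median of -0.74, and 5 were higher and 1 lower at 48 h against 12 h, where the median turned to -0.26. The clearest was the localized small heat shock protein MS.gene066800, at 11.6, 12.8 and 12.4 FPKM at 12 h against 125, 50.8 and 102 FPKM at 0 h, a fall of 3.30 ± 0.40 on the log2 scale (edgeR adjusted p = 0.00547).

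HSP90, a chaperone that holds factors of the family inactive in unstressed cells, summed to 1109, 704 and 436 FPKM at 0 h, 539, 556 and 1716 FPKM at 12 h and 353, 440 and 381 FPKM at 48 h over 24 genes. The 12 h replicate 3, which had the highest A-2 value, also had the highest HSP90 and HSP70 sums. Its sum of small heat shock proteins, at 247 FPKM, lay below every 0 h and 48 h library but above the other 12 h libraries, at 147 and 133 FPKM. The localized small heat shock protein genes weigh heavily on this sum. MS.gene066800 alone was at 12.4 FPKM in that library, against 125, 50.8 and 102 FPKM at 0 h. The other small heat shock proteins were not summed apart, so the low sum does not describe them. The match of A-2, HSP90 and HSP70 in 1 library was seen in the data, and a link was not tested. Of the 24 genes, 2 were lower and none higher at 48 h against 0 h, with a median log2 change of -1.72, and 4 were lower and none higher at 48 h against 12 h, with a median of -1.74. Every called gene was described as chloroplast HSP90-5 or mitochondrial HSP90-6, on copies of chromosome 5. No HSP90 gene described without an organelle was called. The chloroplast HSP90-5 gene MS.gene62123 was at 0.335, 0.623 and 0.094 FPKM at 48 h, against 51.7, 19.9 and 10.2 FPKM at 0 h, a fall of 6.10 ± 0.90 on the log2 scale (edgeR adjusted p = 0.0298). HSP70, which also binds the factors, summed to 1797, 1125 and 992 FPKM at 0 h, 987, 878 and 1918 FPKM at 12 h and 595, 1267 and 602 FPKM at 48 h over 55 genes. Of these 1 rose and none fell at 12 h against 0 h, 3 were higher and none lower at 48 h against 0 h, and 2 were higher and 2 lower at 48 h against 12 h. The gene that rose at 12 h, the heat shock cognate 70 kDa gene MS.gene23873, was at 1.76, 1.10 and 1.64 FPKM at 12 h and at 0 FPKM in all libraries of 0 h and 48 h (edgeR adjusted p = 0.0262 for 12 h over 0 h). It passed the filter through its 12 h libraries alone, as did MS.gene43156, of the same description. These are the 2 genes lower at 48 h against 12 h. Those calls and the rise at 12 h are therefore not independent of the filter. MS.gene36002, described as heat shock 70 kDa protein 18, was at 17.0, 8.59 and 17.9 FPKM at 48 h, against 1.80, 1.64 and 0.797 FPKM at 0 h, a change of 3.44 ± 0.47 (adjusted p = 0.0275).

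**Figure D5:**
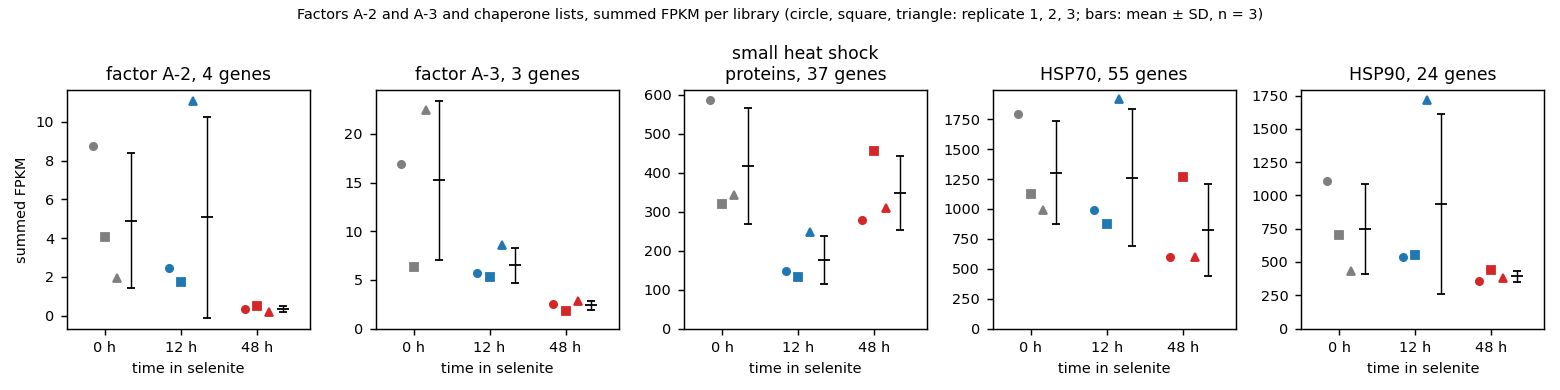
Summed FPKM of factors A-2 and A-3 and of small heat shock proteins, HSP70 and HSP90, 1 panel each, with 1 point per library and the mean ± SD (n = 3 libraries at each time). The 12 h replicate 3 (triangle) is the highest library for A-2, at 11.1 FPKM, for HSP70, at 1918 FPKM, and for HSP90, at 1716 FPKM. All 12 h libraries, with replicate 3 the highest of them, are the lowest for summed small heat shock proteins. Genes of 1 description, localized small heat shock protein, weigh heavily on that sum.

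HSP101 and ClpB, disaggregases of cytosol and organelles, had 2 of 16 genes lower at 12 h against 0 h, 1 lower at 48 h against 0 h and 2 higher at 48 h against 12 h, with no call in the other direction. With library totals 1 was lower at 12 h against 0 h, and 1 was higher and 2 lower at 48 h against 12 h. With TMM, all calls in this list fell on 2 genes of 1 description, plastid ClpB3, on chromosomes 6.2 and 6.3, which may exchange reads. No gene of the list described otherwise was called with TMM. MS.gene86083 was at 5.68, 5.37 and 6.16 FPKM at 12 h and 8.72, 9.90 and 11.1 FPKM at 48 h, against 49.8, 30.2 and 39.4 FPKM at 0 h (edgeR adjusted p = 0.00147 and 0.0265). MS.gene031135 was higher at 48 h against 12 h by 1.78 ± 0.27 on the log2 scale (adjusted p = 0.00878). DnaJ proteins, which guide substrates to HSP70, had 5 higher and 6 lower genes of 176 at 12 h against 0 h, 2 higher and 1 lower at 48 h against 0 h and 11 in each direction at 48 h against 12 h. Of all genes, 1.58% were higher and 4.29% lower at 12 h against 0 h, and 6.96% and 3.61% at 48 h against 12 h. With library totals 10 DnaJ genes were higher and 5 lower at 12 h against 0 h, and 10 higher and 18 lower at 48 h against 12 h. The shares of all genes were then 3.22% and 3.07%, and 4.7% and 8.38%. Among the DnaJ genes called with TMM, 1 passed the filter through its 0 h libraries alone, 2 through those of 12 h and 1 through those of 48 h. Their calls against that time are not independent of the filter. Chloroplast dnaJ C76, MS.gene045465, was at 12.9, 9.59 and 13.1 FPKM at 12 h, against 142, 93.2 and 135 FPKM at 0 h, a fall of 3.77 ± 0.30 (adjusted p = 0.00147). Chloroplast dnaJ 11, MS.gene59472, was higher at 48 h against 0 h by 2.58 ± 0.39 (adjusted p = 0.0307).

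The list of regulators and other targets, which holds multiprotein-bridging factor 1, DREB2, FKBP62 and FKBP65, BAG proteins, galactinol synthase and ascorbate peroxidase, had 66 tested genes. Of these 3 fell and none rose at 12 h against 0 h, 1 fell and none rose at 48 h against 0 h, and 1 was higher and 1 lower at 48 h against 12 h. With library totals 1 rose and 2 fell at 12 h against 0 h, and 1 was higher and 7 lower at 48 h against 12 h. Of all genes, 4.7% were higher and 8.38% lower at 48 h against 12 h with library totals. Galactinol synthase 1, MS.gene07085, which makes a precursor of raffinose sugars, was at 0 FPKM in all 12 h libraries, against 1.47, 1.38 and 1.07 FPKM at 0 h (edgeR adjusted p = 0.00932), and passed the filter through its 0 h libraries alone. The co-chaperone FKBP62, MS.gene020092, was at 0.584, 0.605 and 0.592 FPKM at 48 h, against 6.11, 4.38 and 3.64 FPKM at 0 h, a fall of 2.89 ± 0.48 on the log2 scale (adjusted p = 0.0403).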

How the data were processed

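The deposited table gives, for each gene, whole-number read counts that the authors did not normalize, and FPKM values computed by the authors and listed as 1e-04 where the count is 0, which were read as 0. HISAT and StringTie are named in the submitters' processing notes, without version or role. The sources used here do not give the genome build, the strand setting or how reads that match several copies were handled, and coordinates are those of the deposited table. The library insert was 300 ± 50 bp, per the labels' protocols. No sequence of these genes was at hand, so none is printed.

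Genes with at least 1 FPKM in at least 3 libraries were tested (50878). Counts were scaled by TMM and tested with edgeR 4.0.16 (quasi-likelihood, R 4.3.3), with 1 mean per time, all 9 libraries and Benjamini-Hochberg adjustment at 0.05. SE is the absolute log2 change over the root of the F statistic. Summed copies were fitted likewise over 19011 groups; genes outside numbered chromosomes, and genes with a blank or unknown description, stand alone, the last a correction made after a first run. The common biological coefficient of variation was 0.843 for genes and 0.567 for groups. A depth of 39936347 to 56137145 counts puts the floor of 3 counts at 0.0534 to 0.0751 CPM; this covers counting error only. The fits were tested on simulated counts. Alternatives used median-of-ratios factors, library totals, DESeq2 1.42.0, other filters, limma 3.58.1 on log2(FPKM + 1) and log2(FPKM + 0.1), a robust fit, 6 libraries, a replicate block, and single libraries left out.

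The genes, the lists and the tests were chosen with earlier results of these data known, and patterns of the chaperone lists were corrected after descriptions had been seen. Named are every called gene and group, the highest gene of each description by mean FPKM, and from each list the called gene of smallest adjusted p in each comparison; copies named for a missing count, a single library, a contrast within a set or nearness to the filter were chosen after their values were seen.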

Additional observations from a re-analysis of the deposited data

How the results depend on the processing

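Log2 changes that passed the test under at least 1 setting kept their sign under the planned settings, except for A-8 on chromosome 4 at 48 h against 12 h, which was 0.88 with TMM in edgeR and -0.02 and -0.08 with limma on log2(FPKM + 1) and log2(FPKM + 0.1), and for MS.gene09269 at 48 h against 0 h, called by DESeq2 alone, which was 0 without 48 h replicate 3. The falls of A-3 isoform X1, B-2b on chromosome 6 and HSF24 at 12 h against 0 h did not pass with library totals, with no filter or with limma on log2(FPKM + 0.1). For C-1 at 12 h against 0 h and at 48 h against 12 h, and for B-2b on chromosome 6 and HSF24 at 48 h against 12 h, the calls also held under every planned setting that gave a value. The C-1 genes passed the filter through their 12 h level alone, so the C-1 calls are not independent of it. The counts were less stable, and the cause was not tested. Of the 43 genes, DESeq2 called 11 for 12 h over 0 h, 6 for 48 h over 0 h and 12 for 48 h over 12 h, where edgeR called 0, 0 and 6. With only the 6 libraries of a comparison, 2 and 10 genes were called at 12 h against 0 h and 48 h against 12 h, and limma on log2(FPKM + 1) and on log2(FPKM + 0.1) each called 4 at 12 h and 1 at 48 h against 0 h. At 48 h against 12 h, 3 genes were called with no filter and 2 with a filter of 5 FPKM. Leaving out 1 library gave 0 to 3, 0 to 2 and 0 to 8 genes. Of the 19 groups, where the counts were 4, 3 and 5, leaving out 1 library gave 1 to 4, 0 to 7 and 3 to 8. Library totals gave 1 group at 12 h against 0 h and 8 at 48 h against 12 h, no filter gave 1 at 12 h against 0 h, and the 5 FPKM filter gave 2, 0 and 2. At 48 h against 0 h, DESeq2 gave 5 and 6 libraries alone gave 0, and at 48 h against 12 h limma on log2(FPKM + 1) gave 8. Over all genes, where the counts were 2991, 582 and 5378, DESeq2 called 9088, 5579 and 12403, no filter 1852, 158 and 3332, limma on log2(FPKM + 1) 8256, 2037 and 12845, limma on log2(FPKM + 0.1) 5849, 1507 and 10640, and 6 libraries alone 0 at 48 h against 0 h. Leaving out 1 library gave 867 to 4440, 4 to 2733 and 1756 to 7336. Libraries of like copy usage summed, an alternative chosen after seeing the data, gave 0 genes, 0 groups and 0 of all genes in each comparison, with 1 sample at 12 h.

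Same-numbered libraries did not deviate together, with correlations of -0.03 to 0.02 between times, so the numbers were not taken as pairs. With a replicate block, 0 genes of the family were called at 48 h against 12 h and 2, 1 and 4 groups in the 3 comparisons, and 817, 0 and 1771 of all genes. Genes near 1 FPKM rest on few counts, and a library with no count of a gene limits it only to the floor of 3 counts.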
